A study of Mus musculus with 82 samples.

Results

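EoVP16-only peaks are the binding sites of an Eomes-VP16 fusion protein that were listed for no other construct of the series. They were chosen by their positions alone, as the EoVP16 peaks that shared not even 1 bp with a peak of the EoV5, EoGFP or BraGFP list. They number 9767 of the 36203 EoVP16 peaks, and of 132113 peaks in the 4 lists together. The series holds 82 mouse samples, 12 of them chromatin immunoprecipitation (ChIP-seq) libraries, and asks how the T-box factors Eomes and Brachyury direct the exit from pluripotency and the split into germ layers.

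All 4 groups were embryoid bodies of A2lox.Cre mouse embryonic stem cells in which both Eomes and Brachyury were knocked out (dKO), and each carried 1 doxycycline-induced construct. Per the labels, all were grown with activin A at 30 ng/ml and doxycycline and taken on day 5. In EoVP16 cells the construct was Eomes joined to VP16, pulled down through a V5 tag. EoV5 cells carried V5-tagged Eomes, EoGFP cells GFP-tagged Eomes and BraGFP cells GFP-tagged Brachyury. The constructs were induced from a transgene and not from the genes' own loci, which limits them as models of the natural factors. EoVP16 and EoV5 rest on 1 library each, and EoGFP and BraGFP on 1 peak list for 2 libraries each. There are no replicate peak lists, so no p is given, and each 95% interval (Wilson for a share, Newcombe for a difference of shares, exact Poisson for a height) covers counting error only.

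The lists were kept above different minimum heights, at a pileup of 36 overlapping fragments for EoVP16, 60 for EoV5, 120 for EoGFP and 40 for BraGFP. A site bound below the minimum of another list therefore counts here as absent from it. The series holds no EoVP16 ChIP-seq library without doxycycline, so sites that an uninduced culture would also give were not set apart.

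Eomes is a T-box transcription factor of the primitive streak that acts in the making of definitive endoderm and of anterior mesoderm. T-box proteins recognise a T-site with the core GGTGTGA. VP16 is a protein of herpes simplex virus whose acidic activation domain contacts Mediator and general transcription factors, and fusing it to a DNA-binding protein gives a strong activator. Promoters rich in CpG dinucleotides belong mostly to widely expressed genes, whereas promoters of interferon-stimulated genes often carry the interferon-stimulated response element (ISRE), which IRF and STAT proteins bind.

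The promoters below are 300-base windows from RefSeq (GRCm38.p6), from 250 bases before a start to 50 bases after it, written 5′ to 3′ on the gene's strand. The first 5 are shown because 8 of the 15 tallest EoVP16-only summits in promoter windows fell in a window that holds an ISRE core. They are those with the core that stood tallest, save that Apol9b is left out as nearly the same sequence as Apol9a, and Ddx60 is shown in place of Brd7 for its nearer core. Capitals mark the core, which is GAAA, any 2 bases and GAAA again, or on the other strand TTTC, any 2 bases and TTTC. It was searched after these windows had been read. A match of letters is a description and not a proven site.
Apol9a: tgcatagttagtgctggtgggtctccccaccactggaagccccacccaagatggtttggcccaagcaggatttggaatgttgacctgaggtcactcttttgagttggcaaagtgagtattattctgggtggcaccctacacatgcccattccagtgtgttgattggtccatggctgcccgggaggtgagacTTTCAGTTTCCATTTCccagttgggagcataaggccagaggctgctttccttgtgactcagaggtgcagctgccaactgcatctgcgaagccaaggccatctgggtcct
Ncoa7: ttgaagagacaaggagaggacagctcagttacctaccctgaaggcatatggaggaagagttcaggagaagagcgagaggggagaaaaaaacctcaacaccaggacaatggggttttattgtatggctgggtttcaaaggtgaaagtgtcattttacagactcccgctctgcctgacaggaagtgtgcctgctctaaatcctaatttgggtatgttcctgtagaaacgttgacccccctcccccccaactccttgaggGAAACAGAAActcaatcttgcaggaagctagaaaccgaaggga
Ifit3b: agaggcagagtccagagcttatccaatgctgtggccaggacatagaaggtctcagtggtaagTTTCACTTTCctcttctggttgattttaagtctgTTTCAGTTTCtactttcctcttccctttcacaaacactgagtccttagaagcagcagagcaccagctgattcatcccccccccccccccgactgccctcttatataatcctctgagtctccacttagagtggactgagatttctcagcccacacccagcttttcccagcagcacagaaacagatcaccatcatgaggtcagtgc
Ddx60: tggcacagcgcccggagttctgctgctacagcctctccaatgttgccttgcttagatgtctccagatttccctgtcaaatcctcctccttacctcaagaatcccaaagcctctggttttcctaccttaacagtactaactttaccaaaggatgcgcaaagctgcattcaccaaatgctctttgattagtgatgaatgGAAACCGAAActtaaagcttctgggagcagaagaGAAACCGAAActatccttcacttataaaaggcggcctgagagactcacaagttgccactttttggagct
Tdp1: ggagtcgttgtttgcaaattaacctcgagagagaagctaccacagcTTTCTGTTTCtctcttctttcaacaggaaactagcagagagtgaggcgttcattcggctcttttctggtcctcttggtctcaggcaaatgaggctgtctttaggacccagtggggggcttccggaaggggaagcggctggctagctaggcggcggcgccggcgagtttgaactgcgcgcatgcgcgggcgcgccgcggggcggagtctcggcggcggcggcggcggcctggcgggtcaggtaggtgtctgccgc

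Apol9a (chr15:77411031-77411330, minus strand) is an interferon-inducible apolipoprotein L gene, and its window holds overlapping matches from base 192. The EoVP16-only summit lay 8.5 bp from the centre of the nearest match. The summit at Ifit3b (chr19:34607707-34608006, plus strand), an antiviral tetratricopeptide-repeat gene, lay 10.5 bp from its nearest match. In Ddx60 (chr8:61927837-61928136, plus strand), a helicase gene of antiviral sensing, the distance was 42.5 bp. It was 142.5 bp in Ncoa7 (chr10:30655818-30656117, minus strand) and 240.5 bp in Tdp1 (chr12:99884268-99884567, plus strand), a DNA repair gene. In windows not shown it was 9.5 bp in Apol9b, 115.5 bp in Trim21 and 197.5 bp in Brd7. The summits thus lay within about 10 bp of the match at Apol9a, Apol9b and Ifit3b alone among these 8, and over 100 bp away at Trim21, Ncoa7, Brd7 and Tdp1.

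The next 4 windows show a CpG-rich promoter, a pair with the T-site core and a contrast from a shared site. Ddi2 holds the tallest EoVP16-only summit in a CpG-rich window without an ISRE core, and its CpG pairs are in capitals. For Dmwd and Dnttip1 the capitals mark the T-site core GGTGTGA, read here as its reverse complement TCACACC, since they are the tallest in windows that hold it. Pdlim3 is the contrast, the tallest EoVP16 peak of all 4 lists with its summit in a promoter window (267 fragments), again with CpG pairs in capitals.
Ddi2: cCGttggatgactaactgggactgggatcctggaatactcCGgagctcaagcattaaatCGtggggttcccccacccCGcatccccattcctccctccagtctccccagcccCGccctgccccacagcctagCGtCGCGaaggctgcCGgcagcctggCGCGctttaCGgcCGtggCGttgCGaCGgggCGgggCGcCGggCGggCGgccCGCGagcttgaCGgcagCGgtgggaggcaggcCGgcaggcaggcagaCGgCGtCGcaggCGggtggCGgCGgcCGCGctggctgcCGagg
Dmwd: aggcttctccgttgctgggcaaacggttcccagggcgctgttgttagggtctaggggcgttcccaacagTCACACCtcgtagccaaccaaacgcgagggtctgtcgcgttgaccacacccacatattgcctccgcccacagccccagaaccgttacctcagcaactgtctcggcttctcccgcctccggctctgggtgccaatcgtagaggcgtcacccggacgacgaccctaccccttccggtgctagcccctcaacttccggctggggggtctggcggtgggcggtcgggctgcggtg
Dnttip1: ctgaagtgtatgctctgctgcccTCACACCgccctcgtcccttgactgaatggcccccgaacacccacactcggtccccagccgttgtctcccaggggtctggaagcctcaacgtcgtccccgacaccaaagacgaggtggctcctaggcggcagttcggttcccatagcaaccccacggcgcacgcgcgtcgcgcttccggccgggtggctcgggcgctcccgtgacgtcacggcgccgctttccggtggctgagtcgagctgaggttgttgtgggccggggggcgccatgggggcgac
Pdlim3: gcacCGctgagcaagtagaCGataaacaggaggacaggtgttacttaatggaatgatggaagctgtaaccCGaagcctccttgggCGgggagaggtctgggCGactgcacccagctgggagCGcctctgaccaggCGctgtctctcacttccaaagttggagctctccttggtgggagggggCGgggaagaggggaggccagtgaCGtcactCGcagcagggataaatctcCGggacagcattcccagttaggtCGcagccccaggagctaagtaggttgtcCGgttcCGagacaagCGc

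The Ddi2 window (chr4:141723370-141723669, minus strand), of a protease gene, held 35 CpG pairs at an observed to expected ratio of 0.884. The Pdlim3 window (chr8:45885237-45885536, plus strand), of a muscle PDZ-LIM gene, held 15 at a ratio of 0.577. Neither holds the T-site core. In Dmwd (chr7:19075950-19076249, plus strand) the T-site core began at base 70 and in Dnttip1 (chr2:164745765-164746064, plus strand), a gene of a histone deacetylase complex, at base 24, while both summits lay after the start, by 12 and 47 bp. The T-site core was therefore not under the summit in either window. Its centre lay 190 bp from the summit in Dmwd and 271 bp in Dnttip1. In Hps4, the next tallest with the core (54 fragments, window not shown), the distance was 88 bp.

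EoVP16-only peaks were low and narrow next to the rest of the list. Their median pileup was 42 fragments (interquartile range 38 to 49, highest 170), against 61 (47 to 82, highest 1379) for the other 26436 EoVP16 peaks. Median fold enrichment over the background of the peak caller was 7.19 in EoVP16-only peaks, against 10.2 in the others, and median width was 605 bp against 894 bp. Since a low peak is more easily missed in another list, these values come with the rule and are given as a description. At the minimum pileup of 36 stood 950 EoVP16-only peaks and 611 others. At the top, 226 EoVP16-only peaks exceeded 73 fragments, the upper quartile of the list, and 36 exceeded 100.

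The share of EoVP16 peaks found in no other list was 27%, and it fell steadily with height. It was 56.3% at pileups of 36 to 41, 41.3% at 42 to 49, 22.3% at 50 to 60, 9.51% at 61 to 79 and 1.95% at 80 or more. On the autosomes the share lay between 22.0% and 30.1%, and on chromosome X it was 32.8% (29.0 to 36.8).

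Most EoVP16-only peaks stood more than 1 kb from any peak of the other lists. The median gap to the nearest EoV5, EoGFP or BraGFP peak was 8.18 kb (interquartile range 2.92 to 19.0). Within 1 kb 10.3% had one, and within 10 kb 56.2%. Whether these gaps differ from those that the number of peaks in the lists would give was not tested. The rule's edge held few peaks. Just inside it, the EoVP16-only peak nearest to Slc2a1, a glucose transporter gene, lay 1 bp from an EoGFP peak, a margin that the unstated start convention of that list (counted from 0 or from 1) could remove, and one inside Crtc3, a CREB coactivator gene, lay 24 bp from one. Just outside it, the EoVP16 peaks nearest to Ptp4a2 and Tnks overlapped another list by 11 and 30 bp, whereas the median overlap of the other EoVP16 peaks was 805 bp.

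The tallest EoVP16-only peaks lay far from gene ends. The highest, with 170 fragments (145 to 198), stood inside Rnf24, a RING finger gene (chr2:131304766-131305488), and the nearest EoV5 peak was 1.43 kb away. The next, with 165 fragments (141 to 192), lay 510 kb from Ipo11, an importin gene, at chr13:106284115-106284740. A peak of 164 fragments (140 to 191) lay 251 kb from Jun, which encodes an AP-1 subunit, at chr4:95303119-95304100. The peaks nearest to Lrig3, Gtpbp10, Uaca, Slc44a3, Csf1, Nfib and Xpnpep1 followed, with 124 to 150 fragments, and those of Slc44a3 and Nfib were inside the gene. Of the 25 tallest EoVP16-only peaks 0 had the midpoint within 1 kb of a coding gene end, and of the 100 tallest 6 did, while 53 lay outside genes and 41 inside.

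Over the whole class, EoVP16-only peaks lay at gene ends more often than the private peaks of the other constructs, and less often than shared EoVP16 peaks. The midpoint was within 1 kb of a coding gene end in 1775 of 9767 EoVP16-only peaks, or 18.2% (17.4 to 19.0), against 31.5% (30.9 to 32.0) of the other EoVP16 peaks and 27.9% of the whole list. The difference was -13.3 points (-14.2 to -12.3). A further 40.1% of EoVP16-only peaks lay elsewhere inside coding genes and 41.7% outside them.

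Against the EoV5-only peaks, which come from the same antibody and also 1 library, the share at gene ends was higher by 15.9 points (15.1 to 16.7), since 2.25% (1.98 to 2.55) of the 10408 EoV5-only peaks lay there. It was higher by 14.9 points (14.1 to 15.7) than in the 16553 BraGFP-only peaks (3.31%). Against the 1458 EoGFP-only peaks, with 13.1% (11.5 to 14.9), the difference was 5.07 points (3.10 to 6.88). The classes differ in their minimum heights, and EoGFP and BraGFP also in their tag and in having 2 libraries for 1 list. The labels give a double cross-link (a protein cross-linker, then formaldehyde) for the V5 pull-downs, and fixation was not compared between constructs. The part of these points in the differences was not tested.

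Among EoVP16 peaks shared with a single other list, the share at gene ends differed by partner. EoVP16-only peaks exceeded those shared with EoV5 alone (9.44% at gene ends) by 8.73 points (7.43 to 9.97) and those shared with BraGFP alone (15.0%) by 3.18 points (1.13 to 5.07). They fell short of those shared with EoGFP alone (55.0%) by a difference of -36.8 points (-38.7 to -34.9).

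**Figure D1:**
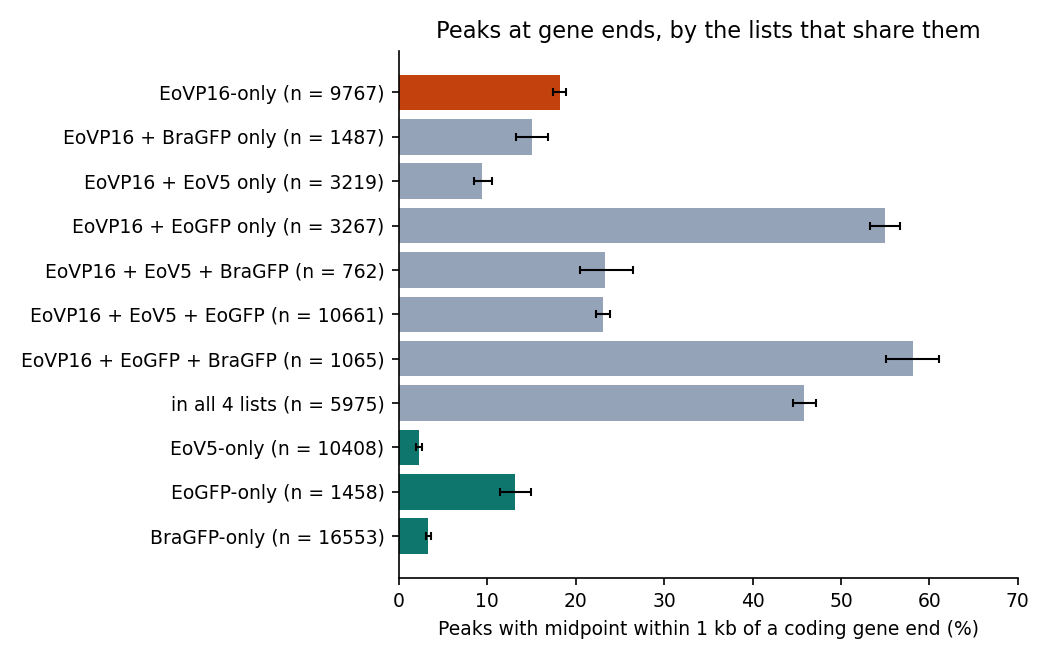
Share of peaks with the midpoint within 1 kb of a coding gene end (horizontal axis, percent) for EoVP16-only peaks, for EoVP16 peaks by the other lists that share them, and for the peaks private to EoV5, EoGFP and BraGFP. Bars give the share and whiskers its 95% Wilson interval. EoVP16-only peaks stand at 18.2%, below the peaks shared with EoGFP alone (55.0%) and above EoV5-only peaks (2.25%).

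Peak width moved with the difference from the other EoVP16 peaks. Among peaks of 600 bp to under 900 bp, 17.1% of EoVP16-only peaks and 16.2% of the others lay at gene ends, a difference of 0.934 points (-0.722 to 2.65), so the sign turned. Below 400 bp the shares were 4.71% and 3.21%, and from 400 to under 600 bp 7.72% and 6.65%. Among wider peaks EoVP16-only peaks were lower, with 39.4% against 44.9% from 900 to under 1500 bp and 59.2% against 63.4% at 1500 bp or more. Within a width class the distance between the 2 kinds of peak was thus at most 5.52 points, less than the 13.3 points over all widths.

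Peak height gave another picture. At pileups of 36 to 41, 15.7% of EoVP16-only peaks and 12.3% of the others lay at gene ends, a difference of 3.48 points (1.94 to 5.01). At 42 to 49 the shares were 20.2% and 23.0%, and at 50 to 60 they were 22.7% and 35.0%. At 80 fragments or more, 10 of 141 EoVP16-only peaks lay there, or 7.09% (3.90 to 12.6), against 34.7% of the others. The share at gene ends thus rose with height in the other EoVP16 peaks up to 79 fragments, where it was 41.1%. In EoVP16-only peaks it was highest at middle heights.

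**Figure D2:**
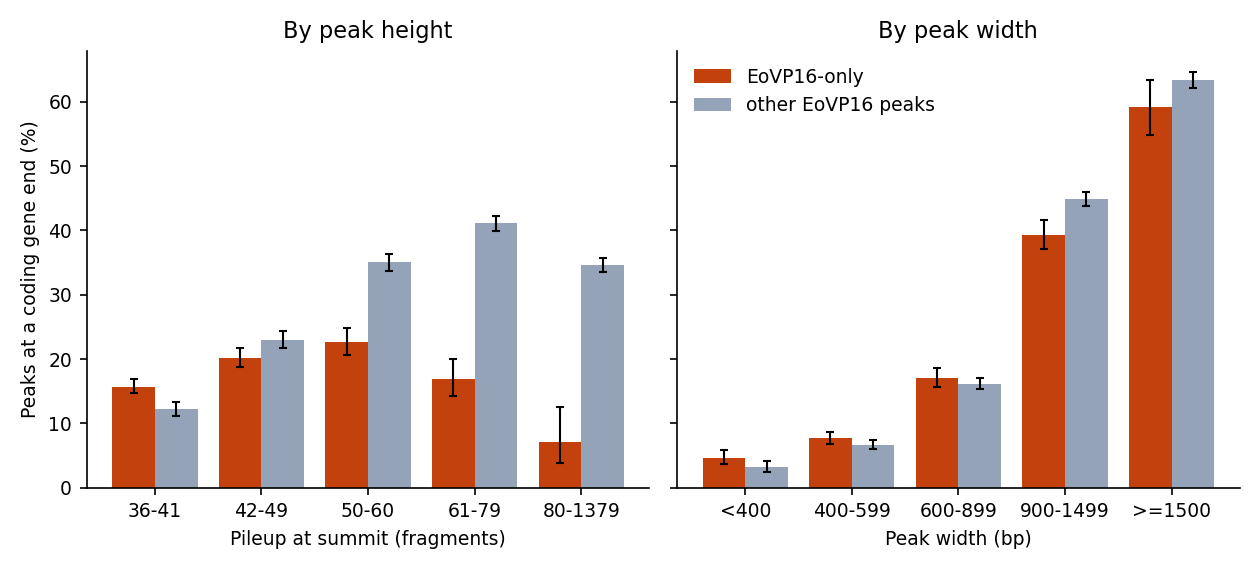
Share of peaks at a coding gene end (vertical axis, percent) by pileup at the summit in fragments (left) and by peak width in bp (right), for EoVP16-only and other EoVP16 peaks. Whiskers are 95% Wilson intervals. The classes part above 50 fragments, reaching 7.09% and 34.7% at 80 or more, but differ by at most 5.52 points within a width class.

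By chromosome, EoVP16-only peaks lay at gene ends less often than the other EoVP16 peaks on 19 of 21 chromosomes. On chromosome X the order was the other way, with 66 of 180 (36.7%) against 112 of 369 (30.4%), a difference of 6.31 points whose interval (-1.97 to 14.8) includes 0, and chromosome Y had 0% in both. EoVP16-only peaks stood above EoV5-only peaks on 20 of the 20 chromosomes that held any EoV5-only peak.

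Outside chromosome 18, gene-end peaks were mostly at starts. The promoter table holds 21263 windows of 17492 coding genes and none on chromosome 18, so the 276 EoVP16-only peaks there were left out. Of the EoVP16-only peaks at a gene end, 68.1% (65.9 to 70.2) had the summit within 1 kb of a start, against 75.9% for the other EoVP16 peaks. Only 17492 of 21887 coding genes have a window. Peaks at the ends of genes without one stayed in the count, so both shares may be too low. Of 9491 EoVP16-only summits, 1450 lay within 1 kb of a start, or 15.3% (14.6 to 16.0), against 28.4% (27.8 to 28.9) of the other EoVP16 summits and 0.947% (0.775 to 1.16) of EoV5-only summits. The median position of these EoVP16-only summits was 2 bp before the start, and 76.7% of them lay within 250 bp of it. In the other EoVP16 peaks these values were 5 bp before the start and 76.2%, so the summits of both classes centred on starts.

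EoVP16-only peaks, with no other EoVP16 peak, covered 1623 promoter windows, or 7.63% of all windows. These were CpG-rich promoters for the most part. Their median CpG ratio was 0.744, against 0.800 for the 9174 windows under other EoVP16 peaks and 0.227 for the 9844 windows under no listed peak. By the rule of at least 50% GC and a CpG ratio of at least 0.6, 67.7% (65.4 to 69.9) were CpG-rich, against 76.8% (76.0 to 77.7) under other EoVP16 peaks, 12.4% under none and 45.1% of all windows. The difference from the other EoVP16 peaks was -9.13 points (-11.6 to -6.74). The promoters under EoVP16-only peaks therefore stood near those of shared sites, with more windows at low ratios.

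**Figure D3:**
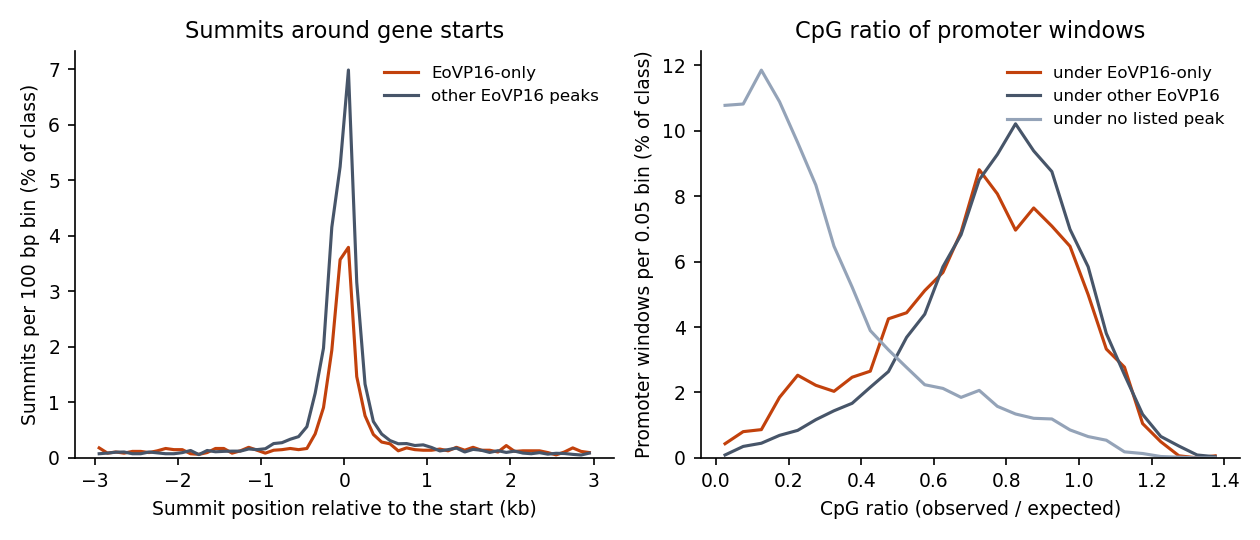
Left, summits per 100 bp bin around gene starts, as a percentage of the EoVP16-only or the other EoVP16 summits. Right, CpG ratio of 300-base promoter windows under EoVP16-only peaks, under other EoVP16 peaks and under no listed peak, as a percentage of each class. Both kinds of EoVP16 peak centre on starts, and the median CpG ratios are 0.744, 0.800 and 0.227.

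Motif letters were counted in the windows and again in CpG-rich windows alone, since CpG content differs between the classes. The T-site core GGTGTGA, on either strand, was in 47 of 1623 windows under EoVP16-only peaks, or 2.90% (2.18 to 3.83). It was in 3.56% (3.20 to 3.96) of windows under other EoVP16 peaks, in 3.84% under no listed peak and in 3.68% of all windows. In CpG-rich windows alone it was in 2.275% under EoVP16-only, 3.04% under other EoVP16 and 1.72% under no listed peak. The Sp box GGGCGG, on either strand, was in 65.7% (63.4 to 68.0) under EoVP16-only and 69.7% under other EoVP16 peaks, and in 46.2% of all windows, but in CpG-rich windows the shares were 77.1%, 77.0% and, under no listed peak, 74.8%. The ETS letters CCGGAA, on either strand, were in 24.4% (22.4 to 26.5) and 31.0% (30.1 to 32.0), and in 18.7% of all. The TATA box TATAAA, on either strand, was in 5.61% and 5.82%, against 12.6% of all windows and 20.2% of those under no listed peak, and in CpG-rich windows the shares were 4.28%, 4.45% and 4.75%. For ETS the CpG-rich shares were 29.8%, 34.3% and 17.0%. Over all windows, the ETS difference between EoVP16-only and other EoVP16 peaks, -6.61 points (-8.85 to -4.27), was the largest of the 12 motifs searched.

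The ISRE core was frequent under the tallest promoter peaks alone among the height classes compared. Of the 799 EoVP16-only summits that fell inside a promoter window, 15 stood above 70 fragments, and 8 of these windows held the core on either strand, or 53.3% (30.1 to 75.2). Among the other EoVP16 peaks above 70 fragments it was 34 of 1678, or 2.03% (1.45 to 2.82), and 3.35% of all windows hold it. Between 36 and 70 fragments the EoVP16-only share ran from 1.75% to 4.93%, near that of all windows. Over all heights it was 4.26% (3.06 to 5.89) in EoVP16-only and 2.38% (1.95 to 2.92) in other EoVP16 summits. Counted by covered window, the core was in 3.76% under EoVP16-only, 2.62% under other EoVP16 and 4.06% under no listed peak. In CpG-rich windows alone these shares were 2.18%, 2.07% and 1.72%. The motif and the height classes were chosen after these promoters had been seen, so the 53.3% and its interval are a description. The 8 also count Apol9a and Apol9b apart, though their windows are nearly the same sequence.

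**Figure D4:**
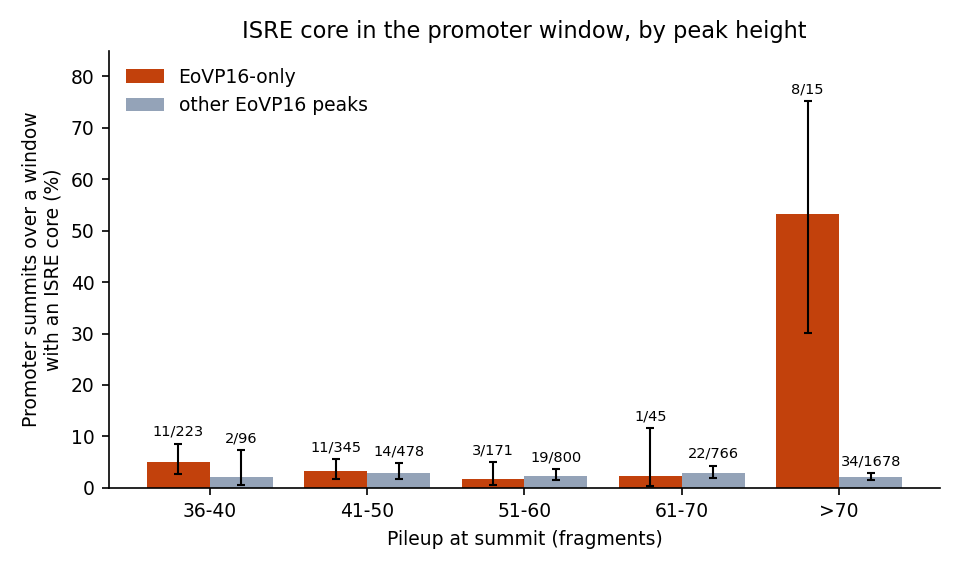
Share of summits inside a promoter window whose window holds an ISRE core (vertical axis, percent), by pileup at the summit in fragments, for EoVP16-only and other EoVP16 peaks. Whiskers are 95% Wilson intervals and the numbers give windows with the core over all windows. EoVP16-only peaks above 70 fragments stand at 53.3%, against 2.03% for the other EoVP16 peaks. The motif and height classes were chosen after these promoters had been seen, and the nearly identical Apol9a and Apol9b windows are counted apart.

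The 15 tallest promoter summits show which genes these were. Apol9a had 102 fragments (83.2 to 124) and its paralogue Apol9b 98 (79.6 to 119). Their windows share an identical run of 278 bases, so reads from one promoter can hardly be told from those of the other. Ncoa7, a coactivator gene with an interferon-inducible form, had 97 fragments, and Tdp1 had 85 in a peak that also lies at the end of Efcab11. Ifit3b had 83, in a peak that also counts for Ifit1bl1. Brd7, a chromatin remodeller gene, had 80, in a peak 0.615 kb from a BraGFP peak. Ddx60 had 73 and Trim21, an antiviral ubiquitin ligase gene, had 72. CpG ratios were low in Apol9a (0.0929), Ifit3b (0.0582), Trim21 (0.146) and Ncoa7 (0.231), and high in Tdp1 (1.00) and Brd7 (1.03). The 7 of the 15 without the core were Ddi2 (89), Trim54 (82), Arpc5 (79), Mlh3 (74), Ero1a (72), Map2 (71) and Dtymk (71). Other tall peaks at gene ends were those of Otud5, a deubiquitinase gene (91 fragments, 0.953 kb from an EoV5 peak), Gbp10, an interferon-induced GTPase gene (86 fragments), and Marcksl1 (84 fragments, 0.516 kb from a BraGFP peak).

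A list of 50 interferon-stimulated genes was then drawn up, after those promoters had been seen, and 48 were in the gene table. EoVP16-only peaks lay at an end of 13 of the 48, or 27.1%, against 8.67% of all coding genes (1897 of 21887). The 13 were Ifit2, Ifit3, Ifit3b, Ddx60, Ddx58, Ifih1, Bst2, Xaf1, Gbp7, Zbp1, Nlrc5 and the neighbours Dtx3l and Parp9, which share 1 peak. Their heights ran from 37 fragments at Ifit2 to 83 at Ifit3b. Another EoVP16 peak lay at 21 of the 48 (43.8%), against 42.3% of all coding genes. For EoV5 it was 6 of 48 (12.5%), against 31.0% of all coding genes, for EoGFP 12 of 48, against 41.1%, and for BraGFP 17 of 48 (35.4%), against 22.5%. As the list was chosen for these peaks, its count is a description. No expression of these genes was examined here.

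Genes of the germ-layer programme had EoVP16-only peaks at their ends about as often as coding genes at large. Over 9 such lists, 8 of 128 genes had one at an end, or 6.25%, near the 8.67% of all coding genes. Another EoVP16 peak lay at an end of 71 of the 128 (55.5%), against 42.3% of all coding genes. Within 50 kb 66.4% had an EoVP16-only peak, against 51.6% of all coding genes. That share was 60.8% in 10 lists of widely expressed genes and 8.72% in lists of other tissues. At gene ends, the primitive streak, definitive endoderm, pluripotency, Nodal and activin, and epithelial-mesenchymal transition lists had 0. In the mesoderm list 3 of 20 had one there, namely Isl1, a LIM-homeodomain gene (40 fragments), Kdr, the VEGF receptor gene (38), and Foxc1, a forkhead gene (37). In the neural plate list Hes5, a Notch target, had 62 fragments and Nes, the nestin gene, 39. Of the Wnt list Nkd1, an inhibitor of the pathway, had 50 and the ligand gene Wnt5a 41, and of the FGF list the ligand gene Fgf3 had 41. Except at Hes5, these peaks were below the median height of the whole EoVP16 list, 54 fragments.

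Lists of widely expressed genes gave the following counts. Over 10 general lists 38 of 388 genes had an EoVP16-only peak at an end, or 9.79%, close to the 8.67% of all coding genes. Another EoVP16 peak lay at 307 of the 388 (79.1%). Of the 38, 31 had no other EoVP16 peak at an end, and over all coding genes it was 1655 of 1897. Set against the 81 general genes without another EoVP16 peak, these 31 came to 38.3%, against 13.1% of all coding genes without one. The figure was 6 of 57 (10.5%) in the programme lists and 5 of 1525 (0.328%) in lists of other tissues, such as olfactory receptors with 2 of 1106 genes. These shares drop every gene with another EoVP16 peak at an end, 307 of the 388 general genes. The 13.1% pools genes as unlike as those of the general and other-tissue lists. It is therefore no matched background for the 38.3%, and before that drop the general share was near that of all coding genes.

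Among the general lists, the count was highest for cytosolic ribosomal proteins, with 16 of 84 genes (19.0%). Rpl41, a gene of the large ribosomal subunit, had 54 fragments. Respiratory complex I, which feeds electrons from NADH into the respiratory chain, had 6 of 38, among them Ndufb9, Ndufa7 and Ndufc2. Immediate early genes, induced quickly by growth signals, had 4 of 15, namely Ier5, Jund, Ier3 and Fosl1, and the Jund peak lay 0.289 kb from a peak of another list. The histone list had 1 of 68 genes, H1f10, a linker histone gene that the list's symbol pattern took in although it is not replication-dependent, and the Mediator list, subunits of the complex that VP16 contacts, 1 of 33 (Med28). The remaining general lists had 1 to 3 genes each.

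**Figure D5:**
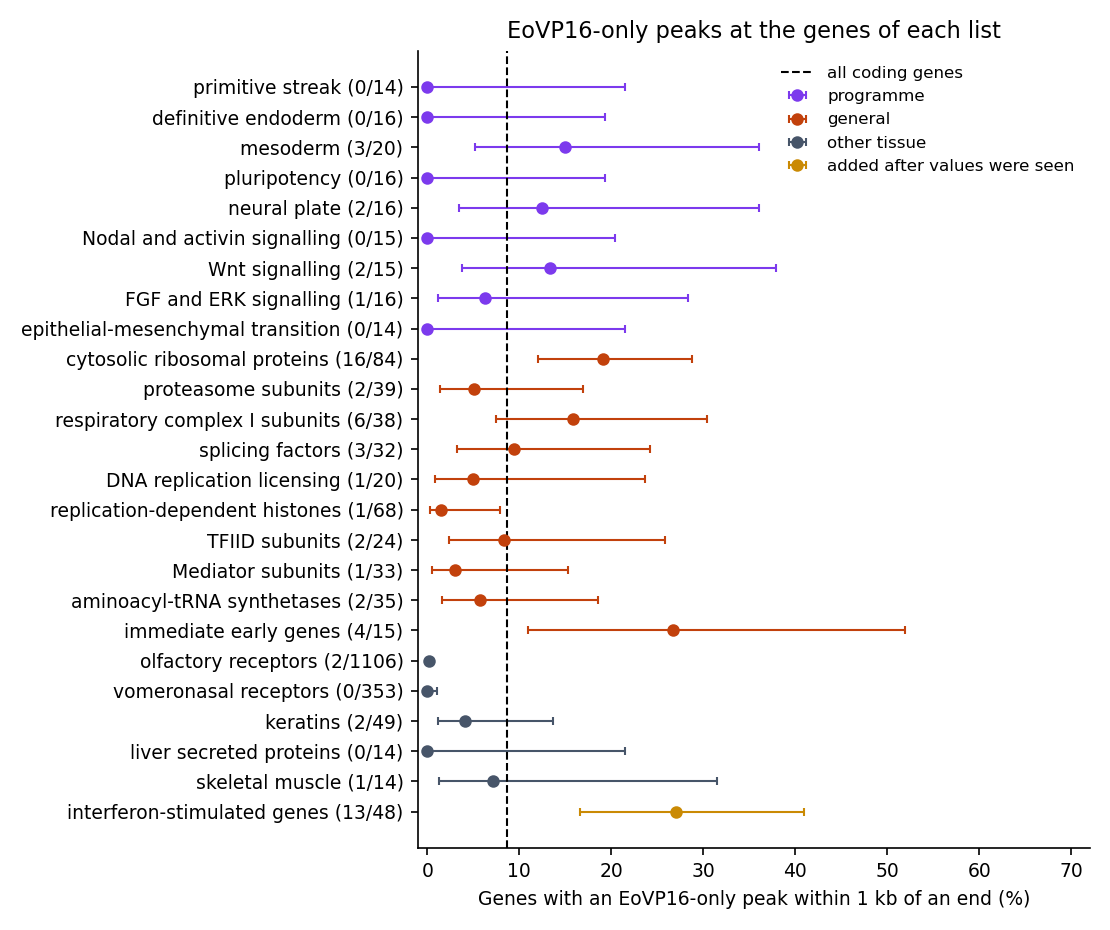
Share of each list's genes with an EoVP16-only peak within 1 kb of an end (horizontal axis, percent, 95% Wilson interval), with the count beside each name. The dashed line marks all coding genes (8.67%). The highest shares, above the line, are those of the interferon-stimulated genes (a list added after values were seen), immediate early genes and ribosomal proteins. The other lists were also chosen with earlier results of these data known. No set test was run, so the place of an interval relative to the line is a description. The intervals of complex I, mesoderm, Wnt, neural plate and splicing, whose shares also exceed the line, include it, and olfactory and vomeronasal receptors lie near 0.

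Of the genes of the 7 factors returned to dKO cells in the series, 3 had an EoVP16-only peak within 50 kb, near the 51.6% of all coding genes. Six2, a homeobox gene of kidney progenitors, had 3 (37 to 52 fragments), T, which encodes Brachyury, had 2 and Mixl1, a homeobox gene of the streak, had 1. One of the T peaks (chr17:8436104-8436251, 40 fragments) lies inside the gene. Eomes, Foxa2, Mesp1 and Msgn1 had 0, beside 5, 5, 7 and 2 other EoVP16 peaks. The Mixl1 peak (chr1:180720351-180720729) stood at the minimum of 36 fragments, 23.5 kb from the gene.

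The genes with most EoVP16-only peaks within 50 kb were mostly long. Sipa1l3 (199 kb) had 11, Agap1 (440 kb) 10, Foxp1 (597 kb), a forkhead gene, 9 and Utrn (488 kb), the utrophin gene, 8. Each also had 5 to 13 other EoVP16 peaks. Gm15319, at 25.5 kb, had the highest count, with 12 EoVP16-only peaks of 36 to 91 fragments, 3 other EoVP16 and 5 EoV5 peaks, and 0 EoGFP and 0 BraGFP peaks. It lies in a stretch of high local background. The background implied by pileup and fold was over 2 times its lowest value at 83 EoVP16-only peaks (0.850%), against 55 of the other EoVP16 peaks (0.208%). Of those 83, 43 lay between 20 and 21 Mb of chromosome 8, where Gm15319 is. The part of that background in the count was not tested.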

How the data were processed

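The 4 deposited peak lists of the induced constructs were used, and the merged list, RNA-seq, ATAC-seq and other ChIP-seq libraries were not used here. The submitters' processing notes name MACS2 2.1.1.20160309.4, Bowtie2 2.3.4 among the other tools and mm10/GRCm38 as the build, with no settings. The authors' EoVP16 and EoV5 lists have no header and follow the MACS2 column order. Their deposited signal column holds whole fragments piled up at each summit, with no sign of scaling to library depth. The deposited ratio is the fold enrichment over the caller's background. The deposited −log10 p-values and q-values were not used here. The EoGFP and BraGFP lists give positions only. Library depth is not given by these files. The V5 pull-downs used a double cross-link (DSG, a protein cross-linker, then formaldehyde) per the labels' protocols.

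Contig peaks (6 in EoVP16) and repeated entries (26) were dropped. Overlap means at least 1 shared bp. Gene ends came from 21887 coding genes of RefSeq GRCm38.p6, whose table has no strand, and promoter windows from the matching promoter table. Local background was taken as (pileup + 1) over fold. Python 3.11.15, NumPy 2.4.6 and pandas 2.3.3 were used, and overlap, distance and interval code was tested on simulated data. The peaks described, the 24 gene lists and the 12 motifs were chosen with earlier results of these data known. The interferon list, the ISRE letters and the width classes as a setting were chosen after the values were seen. Named genes are those nearest to the 10 tallest EoVP16-only peaks, up to 3 per list by height, the 5 with most of these peaks, the 7 factors put back and those at the overlap edge. Every other gene was named with its value known. The alternatives were a stricter or looser overlap rule, the taller 50% of peaks, autosomes only, summits and other end distances. A gene that the naming rule gave is not reported here.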

Additional observations from a re-analysis of the deposited data

How the results depend on the processing

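Of 44 alternative values, 28 kept the direction and stayed within the interval or within 1.5 times the count. With peaks of 600 bp to under 900 bp alone, a setting added after seeing the data, the difference between EoVP16-only and other EoVP16 peaks at gene ends reversed to 0.934 points. The EoVP16-only share was then 17.1% and the difference from EoV5-only 14.5 points. In the taller 50% of the EoVP16 list there were 1586 EoVP16-only peaks, 19.2% of them at gene ends. They differed from other EoVP16 peaks by -18.4 points and from EoV5-only by 16.9, and lay at 329 genes. With the taller 50% of both lists, also added later, the difference from EoV5-only was 17.5. Gene ends at 500 bp gave 14.4%, -12.1 and 13.1 points, in the same order of share, other EoVP16 and EoV5-only. At 5 kb they gave 33.3%, -10.9 and 20.3 points, and 3655 genes. The difference from EoGFP-only stayed between 4.80 and 6.62 points in the settings run. No paired analysis was possible because each construct has 1 peak list with no replicate number, and no replicate could be left out. Unknown depth and different minimum pileups limit every statement of absence from a list, and counts of 15 or fewer carry wide intervals.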
